A study of Mus musculus with 22 samples.

Results

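The genes of the sperm axoneme and flagellum were taken as the rows of the testes RNA-seq count table whose symbol begins with one of the family names *Dnah*, *Dnai*, *Dnal*, *Rsph*, *Tekt*, *Odf*, *Ropn1*, *Fsip*, *Cfap* or *Spag*, followed where the family is numbered by a digit, or is *Akap3* or *Akap4*. This gave 50 of the 17931 gene symbols in the table. By the structure of their products or by family name, 30 were placed in the axoneme, 7 in the outer dense fibers and 5 in the fibrous sheath. The 7 are the *Odf* genes, which include the relatives by name *Odf2l* and *Odf3l1*. The remaining 8 were sperm associated antigen (*Spag*) genes, named for how they were found rather than for a place in the tail. No symbol beginning with *Cfap* was among the rows, and *Fsip2* was not analysed here.

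RNA of whole testes was sequenced from 3 pairs of littermate males aged 7 months. The WT males were breeders of proven fertility, and the MLXKO males were homozygous for a constitutive *Mlx* deletion. The allele lacks exons 3 to 6, which encode the DNA-binding and dimerization domain of MLX, a transcription factor that pairs with MondoA or ChREBP and responds to glucose metabolites. It was made in 129S4 embryonic stem cells, and the Meox2-Cre used for the deletion was bred out, so that the testes compared differ in *Mlx* in every cell type and no cell type was targeted separately. Lines from independent stem cell clones existed, and which of them was sequenced is not given in the sources used here.

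A sperm tail is built around the axoneme, a ring of doublet microtubules with a central pair. Outer and inner dynein arms walk along the neighboring doublet and drive bending, and radial spokes and the central apparatus control when they do so. Outer dense fibers stiffen the midpiece and principal piece, and the fibrous sheath surrounds the principal piece and anchors kinases and glycolytic enzymes. Transcripts for these parts appear from meiosis onward and are most abundant in spermatids, whose tails grow while their nuclei condense.

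*Mlx* itself had 128, 96 and 98 counts in the WT libraries and 94, 109 and 102 counts in the MLXKO libraries (LFC -0.18, SE 0.14, edgeR adjusted p = 0.326). This row does not check the genotype labels. Exon 7 was left in place, the 3′ end of the gene overlaps that of *Psmc3ip*, and counts by exon were not examined. The cause of these *Mlx* counts was not tested. The libraries held 16674678 to 19742726 counts, and 47 of the 50 flagellum genes were among the 14640 genes with enough counts for testing. Levels are given below as CPM, counts scaled to the library size times its TMM factor, a correction for composition. LFC is the log2 fold change of MLXKO relative to WT with its SE, and the adjusted p comes from the quasi-likelihood test of edgeR, adjusted by Benjamini-Hochberg over the 14640 genes. A gene is said to be lower or higher only where that p was under 0.05. Between whole testes, fewer cells of a type and less RNA per cell cannot be told apart. The p-values measure the spread among 3 testes of each genotype.

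The upstream sequence of 4 flagellum genes is shown because their products stand for different parts of the tail and because their windows differ in the short motifs that MLX partners, CREM and RFX factors are known to bind. Each runs 5′ to 3′ over the 250 bases before a transcription start in RefSeq (GRCm38.p6, the assembly of mm10), and capitals mark a motif match, which on the other strand reads CGCGTG for CACGCG and GGCAAC for GTTGCC.
Dnaic2 (chr11:114727169-114727418, plus strand): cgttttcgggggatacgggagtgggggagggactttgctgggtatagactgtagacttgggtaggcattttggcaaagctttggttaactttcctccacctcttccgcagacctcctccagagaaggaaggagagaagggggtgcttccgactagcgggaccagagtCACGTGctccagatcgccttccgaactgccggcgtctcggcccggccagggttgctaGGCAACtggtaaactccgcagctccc
Tekt1 (chr11:72361883-72362132, minus strand): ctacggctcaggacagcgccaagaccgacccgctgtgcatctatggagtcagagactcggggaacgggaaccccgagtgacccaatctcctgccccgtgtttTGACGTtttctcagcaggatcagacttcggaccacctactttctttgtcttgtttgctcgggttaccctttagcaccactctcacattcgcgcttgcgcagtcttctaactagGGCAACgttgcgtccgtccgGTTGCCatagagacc
Odf2 (chr2:29889470-29889719, plus strand): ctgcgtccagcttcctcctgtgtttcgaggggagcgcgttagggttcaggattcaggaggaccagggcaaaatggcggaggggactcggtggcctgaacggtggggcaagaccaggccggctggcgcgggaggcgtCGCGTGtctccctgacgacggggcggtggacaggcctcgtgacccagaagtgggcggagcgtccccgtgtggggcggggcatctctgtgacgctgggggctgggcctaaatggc
Akap4 (chrX:7067265-7067514, plus strand): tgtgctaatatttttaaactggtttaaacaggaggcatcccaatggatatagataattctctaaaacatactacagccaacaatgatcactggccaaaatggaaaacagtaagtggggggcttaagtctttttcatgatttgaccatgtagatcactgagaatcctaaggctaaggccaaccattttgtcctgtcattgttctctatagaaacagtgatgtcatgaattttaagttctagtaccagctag
The motifs searched were CACGTG, the E-box bound by MAX and MLX dimers, CACGCG, a variant of it, TGACGT, the core of the site of CREM, and GTTGCC, an arm of the X-box of RFX factors, and none of these words contains another. *Dnaic2* held CACGTG 83 bases before its start and GTTGCC 26 bases before it. This window lies within the *Dnaic2* gene as annotated in RefSeq (chr11:114721341-114757889). The windows shown for *Tekt1* and *Odf2* also lie within their annotated genes. *Tekt1* held TGACGT 148 bases before its start and GTTGCC 35 and 15 bases before it, on opposite strands. *Odf2* held CACGCG 114 bases before its start, and none of the 4 words was in the window of *Akap4*. For *Tekt1*, *Odf2* and *Akap4*, which have several listed starts, the start whose window held most matches is shown.

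For counting motifs, windows were matched by symbol for 43 of the 50 flagellum genes. Those without a window were *Fsip1*, *Odf1*, *Rsph1*, *Rsph4a*, *Spag1*, *Spag11a* and *Spag11b*. Motifs were counted in the window of any listed start. Unlike the windows shown, the windows used for counting also took in the 50 bases after the start. Among these 43, CACGTG was in 1, or 2.33%, against 11.1% of the 11287 tested genes with a window. CACGCG was in 6, or 14.0%, against 18.6%, and TGACGT in 4, or 9.30%, against 12.0%. GTTGCC was in 14, or 32.6%, against 15.5% of the tested genes. Of the 14 genes with GTTGCC, 11 were lower in MLXKO testes, and of the 43 with a window 30 were lower. Of all tested genes 20.6% were lower, and the share lower among all those with GTTGCC was not examined. The motifs counted are matches of letters and carry no measurement of binding.

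Most flagellum genes were lower in MLXKO testes, with means below WT by 9.62% for *Dnah1* to 29.3% for *Akap4*. Of the 47 tested, 33 were lower and 0 were higher, against 20.6% of all tested genes lower and 24.8% higher. Their median LFC was -0.23, and that of all tested genes was 0.025. All 3 MLXKO libraries lay below all 3 WT libraries for 37 of the 50 genes, the untested *Rsph4a* among them, against 25.9% of the tested genes, and 42 of the 50 were lower in each of the 3 littermate pairs, against 31.7%. Within the pairs, the median log2 ratio of the 47 genes was -0.15, -0.29 and -0.26 for pairs 1, 2 and 3. The 33 lower genes kept an LFC below 0 under each scaling tried, and 14 of them still passed with no scaling beyond library size, against 8.66% of all tested genes, a choice that moved the median LFC of all tested genes to 0.16.

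**Figure D1:**
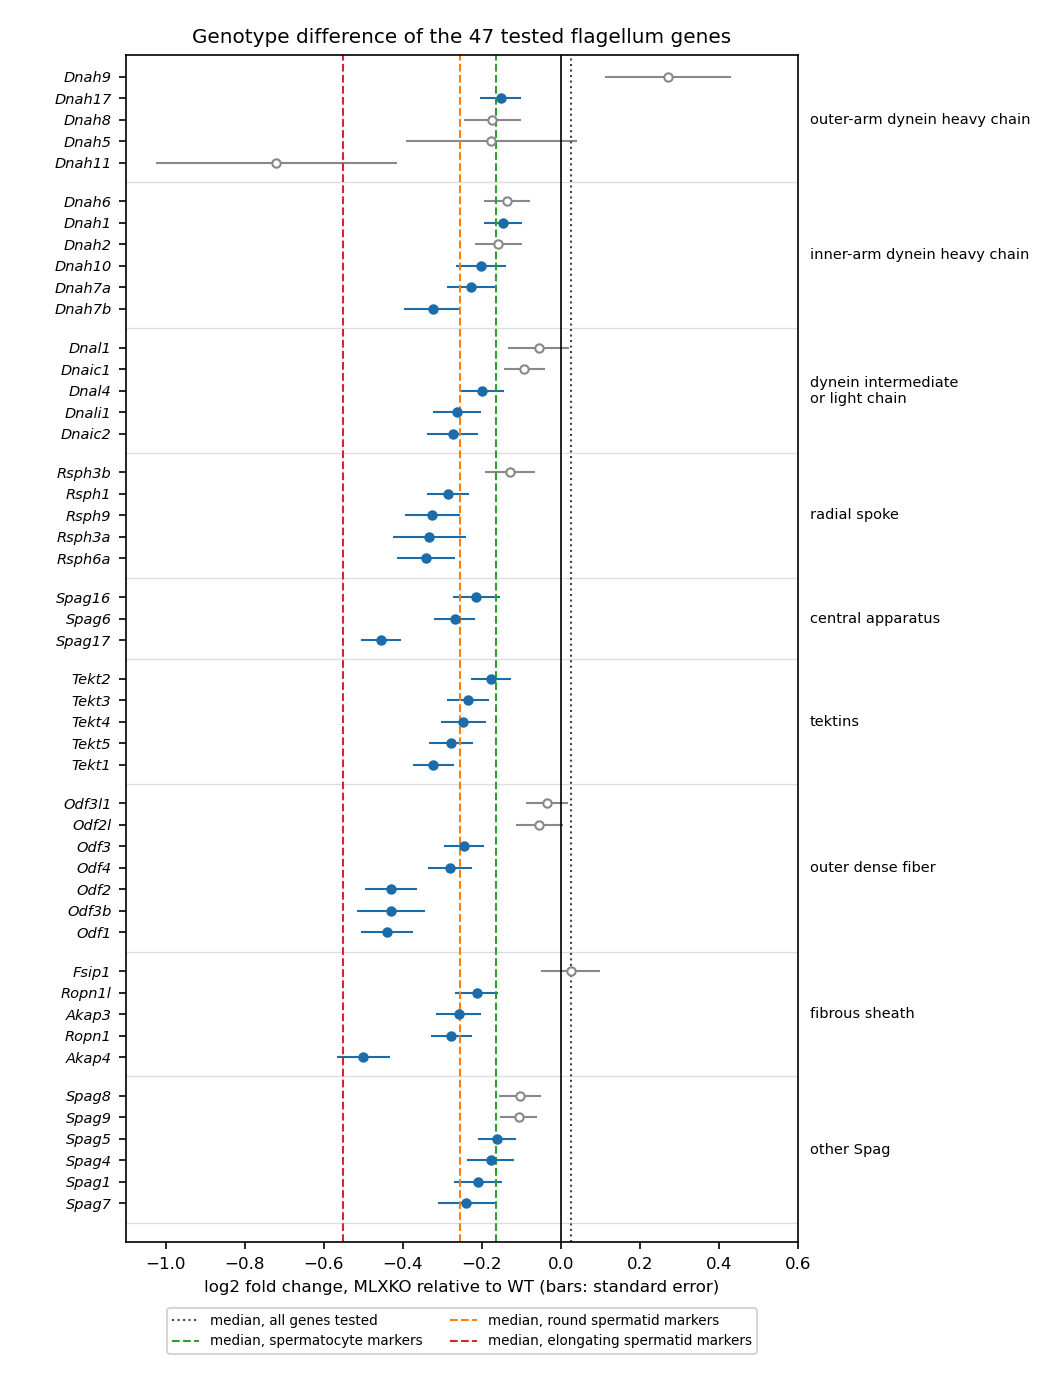
Log2 fold change of each tested flagellum gene in MLXKO relative to WT testes (x axis), with the SE as bars, grouped by structure. Filled blue points are the 33 genes with an edgeR adjusted p under 0.05, grey open points the other 14, and vertical lines the medians of all tested genes (0.025) and of the spermatocyte (-0.16), round spermatid (-0.26) and elongating spermatid (-0.55) markers.

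The outer dynein arms supply most of the power of the beat, and of the 5 outer-arm heavy chain genes 1 was lower. That is 20.0%, near the 20.6% of all tested genes that were lower. The same 20.6% stands beside the counts of each structure below. *Dnah8* (chr17:30626935-30875762, RefSeq coordinates on mm10), the gamma heavy chain of the sperm arm, had the highest level of the subgroup at 37.5 ± 3.19 RPKM (SD, n = 3) in WT, RPKM being CPM per kilobase of exon. Its libraries held 1089, 918 and 1009 CPM in WT and 865, 971 and 839.9 CPM in MLXKO testes (LFC -0.17, SE 0.07, edgeR adjusted p = 0.072). The groups overlapped, and KO2 lay above WT2. *Dnah8* was called lower in DESeq2 without and with the littermate pair as a block (adjusted p = 0.0118 and 0.0293), with DESeq2's size factors in edgeR (adjusted p = 0.0433), with trends on exon length and GC content removed (edgeR adjusted p = 0.0196, and 0.0398 with the block) and without KO2 or WT2 (edgeR adjusted p = 0.0357 and 0.0393), at LFC of -0.24 to -0.20. *Dnah17* (chr11:118021723-118130719), the beta heavy chain of the sperm arm, was lower, with 510.1, 461 and 511 CPM in WT and 445, 443 and 445 CPM in MLXKO testes (LFC -0.15, SE 0.05, edgeR adjusted p = 0.0339). Its 3 MLXKO values were nearly the same and lay below the lowest WT value. The call of *Dnah17* was lost when the littermate pair was a block in edgeR, and *Pgs1* overlaps 93 bases of its exons on the other strand.

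The other 3 outer-arm heavy chains, *Dnah5*, *Dnah9* and *Dnah11*, are those of motile cilia in airways and the embryonic node, and each was at a low level in both genotypes. *Dnah5* had 64, 61, 100, 75, 81 and 58 counts in WT1 to WT3 and KO1 to KO3. *Dnah9* had 129, 134, 166, 153, 204 and 200 counts, the higher values being in KO2 and KO3, and *Dnah11* had 19, 22, 31, 14, 13 and 20 counts. None of the 3 passed the test, with LFC of -0.18 (SE 0.22), 0.27 (SE 0.16) and -0.72 (SE 0.30), and *Dnah11* shares 642 exon bases with *Cdca7l* on the other strand. *Dnah9* was called higher when KO1 was left out. *Dnah11* was called lower when WT1 was left out (LFC -0.92, edgeR adjusted p = 0.0439) and with both the block and the trends removed (LFC -0.78, edgeR adjusted p = 0.0377).

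Sperm and ciliary forms of the same axonemal part were compared through the ratio of their RPKM in each library. In WT testes *Dnah8* stood at 136 times the RPKM of *Dnah5*, *Dnah17* at 59.4 times that of *Dnah9* and 320 times that of *Dnah11*, and *Rsph6a* at 760 times that of *Rsph4a*, the spoke head gene of cilia. In MLXKO testes the same ratios were 137, 44.3, 478 and 1266. On the log2 scale, with a pseudocount of 0.5 counts, the MLXKO minus WT differences were -0.016, -0.41, 0.55 and 0.61. The exact permutation tests over libraries gave two-sided p of 1, 0.3, 0.2 and 0.2, adjusted to 1, 0.4, 0.4 and 0.4 over the 4 pairs. With 3 libraries against 3 the smallest p this test can give is 0.1. Within littermate pairs 1 to 3, a comparison added after the data were seen, the differences were -0.41, -0.46 and -0.38 for *Dnah17* against *Dnah9*, 0.26, 0.88 and 0.51 for *Dnah17* against *Dnah11*, and 1.12, 0.098 and 0.61 for *Rsph6a* against *Rsph4a*. These had 1 sign in all 3 pairs, while those of *Dnah8* against *Dnah5* were -0.53, -0.13 and 0.61. An exact sign-flip permutation test within pairs gave p = 0.25 for each of the former 3 ratios, the smallest that 3 pairs allow, and p = 1 for the last. *Rsph4a* had 12, 5, 11, 5, 4 and 5 counts and was not tested on its own.

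**Figure D2:**
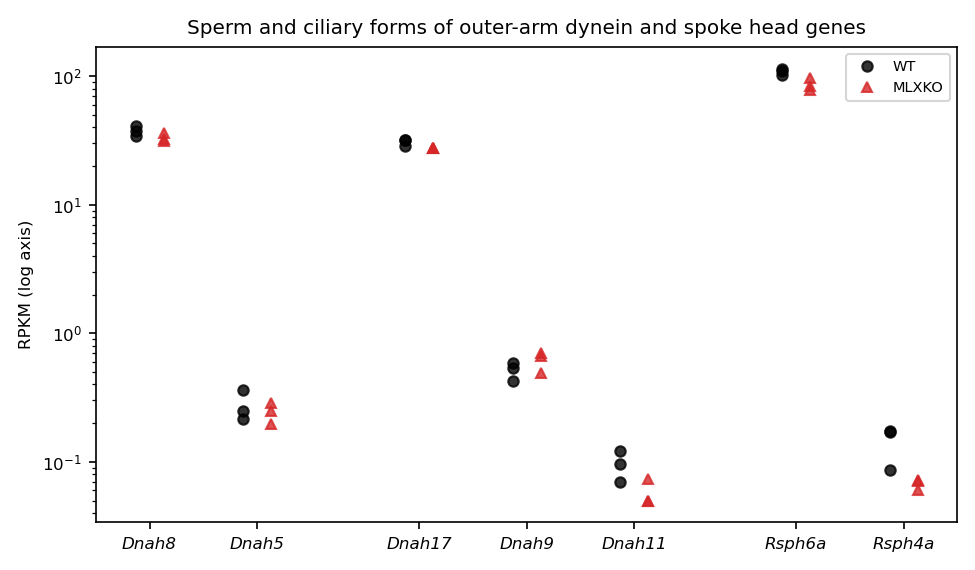
RPKM (log axis) of the sperm forms *Dnah8*, *Dnah17* and *Rsph6a* and of the ciliary forms *Dnah5*, *Dnah9*, *Dnah11* and *Rsph4a* in each library, with WT as black circles and MLXKO as red triangles. In both genotypes the sperm forms lie far above the ciliary forms, with WT means of 30.6 RPKM for *Dnah17* and 0.516 RPKM for *Dnah9*.

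The inner arms, which shape the bend, had 6 heavy chain genes, of which 4 were lower. *Dnah1* had the highest level per length of these at 17.2 ± 0.525 RPKM (SD, n = 3), with 232, 219 and 223 CPM in WT and 210.4, 201 and 198 CPM in MLXKO testes (LFC -0.15, SE 0.05, edgeR adjusted p = 0.028). *Dnah7b* showed the largest difference, from 209, 169.8 and 205 CPM to 153, 157 and 157 CPM (LFC -0.32, SE 0.07, edgeR adjusted p = 0.0037), with the WT libraries further apart than the MLXKO libraries. *Dnah7a*, its near copy on chromosome 1, went from 132, 116 and 128 CPM to 109.6, 101 and 112 CPM (LFC -0.23, SE 0.06, edgeR adjusted p = 0.01). Reads that fit both copies cannot be placed, so the split between *Dnah7a* and *Dnah7b* is uncertain. *Dnah10* was lower as well (LFC -0.20), although KO1 lay above WT2. *Dnah2* (LFC -0.16, edgeR adjusted p = 0.0501) and *Dnah6* (LFC -0.14, edgeR adjusted p = 0.0788) did not pass, and both passed with DESeq2 and when trends with exon length and GC content were removed. *Dnah2* also passed with the littermate pair as a block.

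Of the 5 intermediate and light chains, which tether and tune the arms, 3 were lower. *Dnali1*, an inner-arm light intermediate chain, had the highest level of these at 105 ± 3.53 RPKM (SD, n = 3), with 219, 232 and 218 CPM in WT and 203, 178 and 177 CPM in MLXKO testes (LFC -0.26, SE 0.06, edgeR adjusted p = 0.00467). *Dnaic2*, an outer-arm intermediate chain and the flagellum gene whose window held CACGTG, went from 120.3, 126 and 129 CPM to 114, 98.9 and 97.0 CPM (LFC -0.27, SE 0.06, edgeR adjusted p = 0.00536). For both genes KO1 was the MLXKO library nearest to WT, and the groups did not overlap. The light chain gene *Dnal4* was lower by 12.9%. *Dnaic1*, the partner of *Dnaic2*, did not pass (LFC -0.092, edgeR adjusted p = 0.164), and neither did *Dnal1* (LFC -0.056, edgeR adjusted p = 0.582), which shares 384 exon bases with *Pnma1* on the other strand.

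Radial spoke genes were among the axonemal genes with the larger differences, and of the 5 tested 4 were lower. *Rsph1* (chr17:31255019-31277296), a spoke head protein, had 595 ± 16.6 RPKM (SD, n = 3) in WT, the highest level of the axonemal genes. Its libraries held 810.1, 841 and 797 CPM in WT and 709, 643 and 655 CPM in MLXKO testes (LFC -0.29, SE 0.05, edgeR adjusted p = 0.00136). *Rsph6a*, the spoke head gene expressed in sperm, had 257, 273 and 286 CPM in WT and 240.3, 208 and 196 CPM in MLXKO testes (LFC -0.34, SE 0.07, edgeR adjusted p = 0.00314). *Rsph9*, also of the spoke head, was lower by 20.2%, and in none of these 3 genes did the groups overlap. *Rsph3a*, of the spoke stalk, went from 89.0, 91.3 and 94.6 CPM to 82.0, 59.9 and 76.3 CPM (LFC -0.33, SE 0.09, edgeR adjusted p = 0.0127), with KO2 the lowest library. Its near copy *Rsph3b* did not pass (LFC -0.13, edgeR adjusted p = 0.117), and reads fitting both copies could have gone to either.

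The 3 central apparatus genes were all lower. *Spag17* (chr3:99885417-100143322), a large central pair protein, had the smallest adjusted p of the flagellum genes, with 607, 673 and 659 CPM in WT and 469.8, 469 and 476 CPM in MLXKO testes (LFC -0.46, SE 0.05, edgeR adjusted p = 6.79e-05). The MLXKO libraries were close together, and all of them lay far below the lowest WT library. *Wdr3* overlaps 820 exon bases of *Spag17* on the other strand, and whether counting used strand is not given in the sources used here. *Spag6*, which links the projections of the central pair, went from 413, 431 and 411 CPM to 369, 337 and 336 CPM (LFC -0.27, SE 0.05, edgeR adjusted p = 0.00177). A close copy of *Spag6* exists on another chromosome, and the symbol in the table does not say which was counted. *Spag16*, their binding partner, was lower by 13.8%.

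All 5 tektin genes, whose products form filaments inside the doublet microtubules, were lower, by 11.5% to 20.0%. *Tekt1* (chr11:72344717-72362442) had the highest level at 245 ± 10.9 RPKM (SD, n = 3) and the largest difference, with 382, 416 and 395 CPM in WT and 327, 306 and 320.5 CPM in MLXKO testes (LFC -0.32, SE 0.05, edgeR adjusted p = 0.000538). *Tekt5* had 178, 192 and 189 CPM in WT and 164, 147 and 150.3 CPM in MLXKO testes (LFC -0.28, SE 0.06, edgeR adjusted p = 0.00213). The groups did not overlap for any of the 5. *Tekt2*, *Tekt3* and *Tekt4* had LFC of -0.18, -0.24 and -0.25.

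Outer dense fiber genes included the row with the most counts in the whole table, which ranked 50 by WT RPKM. *Odf2* (chr2:29889014-29931746), a coiled-coil fiber protein that also sits on the appendages of centrioles, had more counts than any other gene symbol and made up 0.517% to 0.524% of the counts of the WT libraries and 0.407% to 0.454% of those of the MLXKO libraries. Its libraries held 5385, 5554 and 5432 CPM in WT and 4452, 3877 and 3824 CPM in MLXKO testes (LFC -0.43, SE 0.07, edgeR adjusted p = 0.000442). *Odf1* (chr15:38219203-38226735), the cysteine-rich major fiber protein, had the highest level per length of the flagellum genes at 1277 ± 19.0 RPKM (SD, n = 3), with 1389, 1431 and 1412 CPM in WT and 1153, 989.8 and 976 CPM in MLXKO testes (LFC -0.44, SE 0.07, edgeR adjusted p = 0.000363). For both, the WT libraries lay close together, and KO1 lay above KO2 and KO3 but far below WT.

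*Odf3b*, much less abundant at 13.8 ± 0.704 RPKM (SD, n = 3), differed by as much, from 24.1, 23.3 and 25.8 CPM to 18.0, 19.7 and 16.6 CPM (LFC -0.43, SE 0.09, edgeR adjusted p = 0.00201). *Odf4* was lower by 17.7% and *Odf3* by 15.6%. The remaining pair are relatives by name, *Odf2l*, which encodes a protein of the base of the cilium, and *Odf3l1*, and they did not pass (LFC -0.054 and -0.036, edgeR adjusted p = 0.485 and 0.611). The groups overlapped for both.

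Of the 5 fibrous sheath genes 4 were lower. *Akap4* (chrX:7067515-7078609) encodes the main structural protein of the sheath, which anchors protein kinase A, and it had the eighth most counts in the table. It showed the largest difference among the called flagellum genes, with 2995, 2955 and 3054 CPM in WT and 2349, 2046 and 1972 CPM in MLXKO testes (LFC -0.50, SE 0.07, edgeR adjusted p = 0.000199), a mean lower by 29.3%. The WT libraries lay close together, and KO1 was again the MLXKO library nearest to them. *Akap3* (chr6:126853098-126874308), the partner of *Akap4* in sheath assembly, was lower as well, with 1492, 1494 and 1436 CPM in WT and 1326, 1188 and 1182 CPM in MLXKO testes (LFC -0.26, SE 0.06, edgeR adjusted p = 0.00379).

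*Ropn1* and *Ropn1l*, ropporin and its relative, encode proteins that bind AKAP3 through a domain like that of protein kinase A. *Ropn1* had 341, 355 and 339 CPM in WT and 301, 283 and 269.6 CPM in MLXKO testes (LFC -0.28, SE 0.05, edgeR adjusted p = 0.00151). *Ropn1l*, the sheath gene with the highest level per length at 1086 ± 27.3 RPKM (SD, n = 3), had 1009.7, 1059 and 1049 CPM in WT and 953, 861 and 875 CPM in MLXKO testes (LFC -0.21, SE 0.05, edgeR adjusted p = 0.0078). Neither gene had overlapping groups. The remaining gene, *Fsip1*, did not pass, with 94.6, 118 and 111 CPM in WT and 114, 108 and 106 CPM in MLXKO testes (LFC 0.025, SE 0.07, edgeR adjusted p = 0.808), and its WT libraries spanned the MLXKO values.

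**Figure D3:**
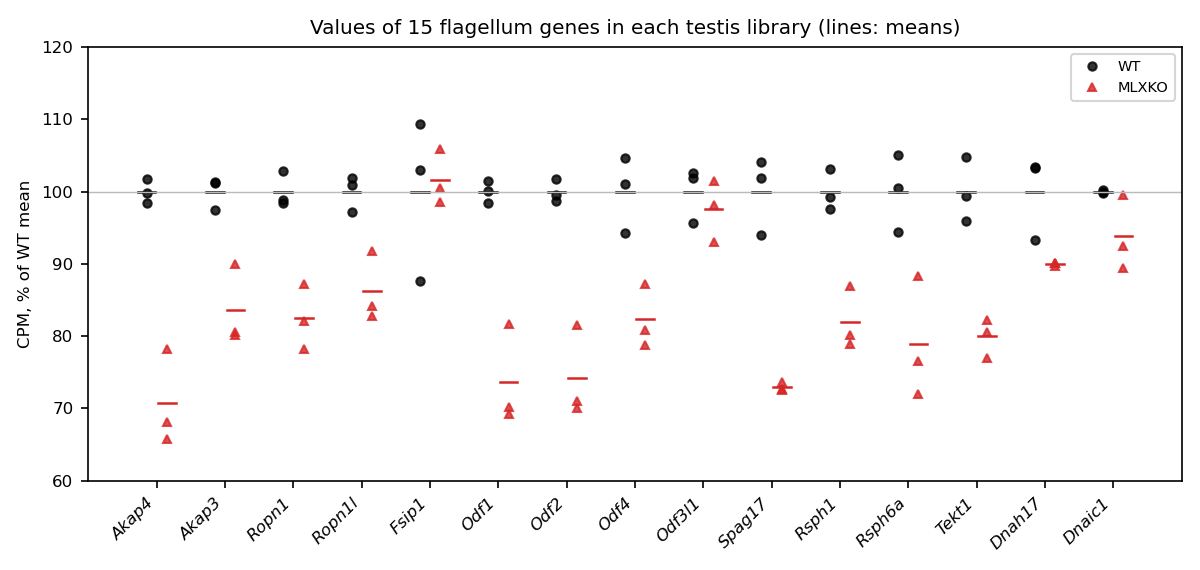
CPM of 15 flagellum genes in each library as a percentage of the WT mean (y axis), WT as black circles and MLXKO as red triangles, with lines at the group means. Of the 15 genes plotted, *Akap4*, *Odf1*, *Odf2* and *Spag17* have the lowest MLXKO means, lower than WT by 29.3%, 26.3%, 25.8% and 27.1%, while the groups overlap for *Fsip1* and *Odf3l1*.

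The 8 other *Spag* genes do not share a structure. *Spag4*, a SUN domain protein of the spermatid nuclear envelope and tail base, had the highest level at 61.1 ± 2.37 RPKM (SD, n = 3), with 283, 306 and 296 CPM in WT and 282, 245 and 256 CPM in MLXKO testes (LFC -0.18, SE 0.06, edgeR adjusted p = 0.0301). *Spag7* had 35.5, 36.2 and 32.5 CPM in WT and 31.1, 29.7 and 27.5 CPM in MLXKO testes (LFC -0.24, SE 0.07, edgeR adjusted p = 0.0191). *Spag1*, a factor in cytoplasmic assembly of dynein arms, had 105, 113 and 115 CPM in WT and 103, 92.1 and 92.0 CPM in MLXKO testes (LFC -0.21, SE 0.06, edgeR adjusted p = 0.0146). *Spag5*, a mitotic spindle protein, was lower by 10.5%, and none of these 4 had overlapping groups. *Spag9*, a scaffold of JNK signaling, and *Spag8* did not pass (LFC -0.11 and -0.10). *Spag11a* and *Spag11b*, defensin-like genes of the epididymis, had 0 counts in every library except for 1 count each in KO2.

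Across the 47 tested genes, the differences went with abundance. Beside the counts by level and exon length that follow, 20.6% of all tested genes were lower. Shares of all tested genes by level or exon length were not examined. All 16 genes with a WT level from 103 RPKM upward were lower, with a median LFC of -0.28. Of the 15 between 24.1 and 76.1 RPKM 10 were lower (median -0.18), and of the 16 up to 23.5 RPKM 7 were lower (median -0.17). Spearman's rho between WT RPKM and LFC was -0.44 across the 47 genes, and Pearson's r between log2 WT RPKM and LFC was -0.25. The genes share the same 6 libraries, and the WT values enter both measures, so that this describes the set and is no test. By exon length, 14 of the 16 shortest genes, up to 2064 bases, were lower (median -0.26), against 8 of the 16 longest, from 8489 bases upward (median -0.17). The longest genes include the dynein heavy chains, the 3 ciliary ones of low level among them. With the trends of each library's values on exon length and GC content removed, 39 of the 47 genes were lower, against 26.4% of all tested genes. The added ones were *Dnah2*, *Dnah6*, *Dnah8*, *Dnaic1*, *Rsph3b* and *Spag9*.

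**Figure D4:**
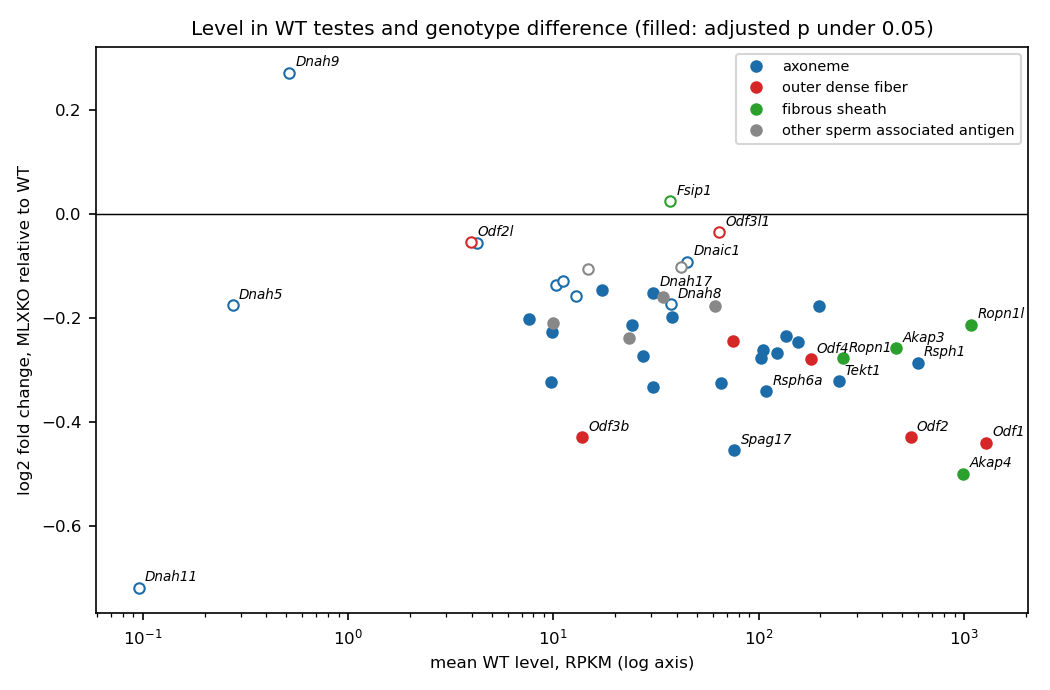
Mean WT level in RPKM (log x axis) and LFC of MLXKO relative to WT (y axis) of the 47 tested flagellum genes, colored by structure, filled where the edgeR adjusted p was under 0.05. The 16 genes from 103 RPKM upward are all filled and lie below 0, and the open points lie at or below 64.0 RPKM, the level of *Odf3l1*.

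KO1 was the MLXKO library nearest to WT for much of the set. Of the 33 lower genes, 28, or 84.8%, had their highest MLXKO value in KO1, against 74.3% of all genes lower in MLXKO testes. Without KO1, 36 flagellum genes were lower, against 23.0% of all tested genes. Without KO2 or KO3, 23 and 24 were lower, against 14.4% and 14.8%. Without WT1, WT2 or WT3, 27, 29 and 28 were lower, against 16.9%, 15.0% and 17.0%. In every such fit all 5 lower outer dense fiber genes and all 4 lower sheath genes kept their call. Of the 33 lower flagellum genes 22 did so, and the same count over all lower genes was not made.

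Genes that work with these structures under other names were taken from 7 lists. In none of the lists was a gene higher. Of all tested genes, 20.6% were lower and 24.8% higher. Of 9 dynein assembly factors tested, 4 were lower (median LFC -0.11), the largest difference being that of *Pih1d3*, an assembly factor on the X chromosome (LFC -0.46, SE 0.09). Of 13 genes of the docking complex, the ruler and the nexin link, 9 were lower (median -0.25), with *Tcte1*, a nexin link protein, at -0.35. *Hydin* and *Spef1*, 2 of 3 further central apparatus genes, were lower at -0.28 and -0.35 (median of the 3 genes -0.28). Among 10 partners and glycolytic enzymes of the sheath, 8 were lower (median -0.29), and *Gapdhs*, the sperm form of glyceraldehyde-3-phosphate dehydrogenase, had the largest difference (LFC -0.42, SE 0.07).

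Of 12 genes of the midpiece and the head-tail junction, 10 were lower (median -0.26). *Smcp*, a cysteine-rich protein of the mitochondrial capsule, had the largest difference of the 7 lists (LFC -0.53, SE 0.06, edgeR adjusted p = 8.32e-05). Of 23 genes of intraflagellar transport and the manchette, the microtubule skirt of the spermatid nucleus, 16 were lower (median -0.22), with *Cep131* at -0.44, and *Ift20*, *Ift22*, *Ift27*, *Ift46*, *Ift52*, *Ift81* and *Ift88* did not pass. Of the 5 listed regulators of motile cilium genes, *Rfx1*, *Rfx2*, *Rfx3* and *Rfx4* were lower, *Rfx2* the most (LFC -0.35, SE 0.06). *Foxj1*, a forkhead factor of ciliated cells, had 2208, 2008 and 1918 counts in WT and 1998, 2236 and 2336 counts in MLXKO testes (LFC -0.0071, edgeR adjusted p = 0.948).

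The flagellum genes moved alongside spermatocyte and spermatid markers and against those of somatic cells. Beside the counts that follow, 20.6% of all tested genes were lower and 24.8% higher. All 10 round spermatid markers and all 10 elongating spermatid markers were lower, with median LFC of -0.26 and -0.55, and 8 of 11 spermatocyte markers were lower (median -0.16). Of 10 spermatogonial markers 1 was lower and 2 were higher (median 0.12). All 10 Sertoli, 7 Leydig and 8 macrophage markers were higher, with medians of 0.78, 1.25 and 1.40, as were 4 of 5 myoid and 2 of 7 endothelial markers (medians 0.56 and 0.55). The flagellum median of -0.23 thus lay between those of the spermatocyte and the round spermatid markers. The part of cell composition in these differences was not tested.

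Summed over its genes, each of the axoneme, outer dense fiber and fibrous sheath groups had lower CPM in every MLXKO library than in any WT library. The axoneme genes summed to 7086 to 7209 CPM in WT and 5876 to 6241 CPM in MLXKO testes. The outer dense fiber genes summed to 7284 to 7521 CPM in WT and 5241 to 6065 CPM in MLXKO testes. Most of that sum was *Odf2*, at 5385 to 5554 CPM in WT and 3824 to 4452 CPM in MLXKO testes. The fibrous sheath genes summed to 5932 to 5989 CPM in WT and 4405 to 5044 CPM in MLXKO testes. The 10 elongating spermatid markers summed to 17124 to 17943 CPM in WT and 9620 to 11959 CPM in MLXKO testes. The 10 Sertoli markers summed to 1142 to 1195 CPM in WT and 1723 to 2100 CPM in MLXKO testes, and the 7 Leydig markers to 758 to 775 CPM in WT and 1698 to 2175 CPM in MLXKO testes. In every one of these lists KO1 was the MLXKO library nearest to WT.

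**Figure D5:**
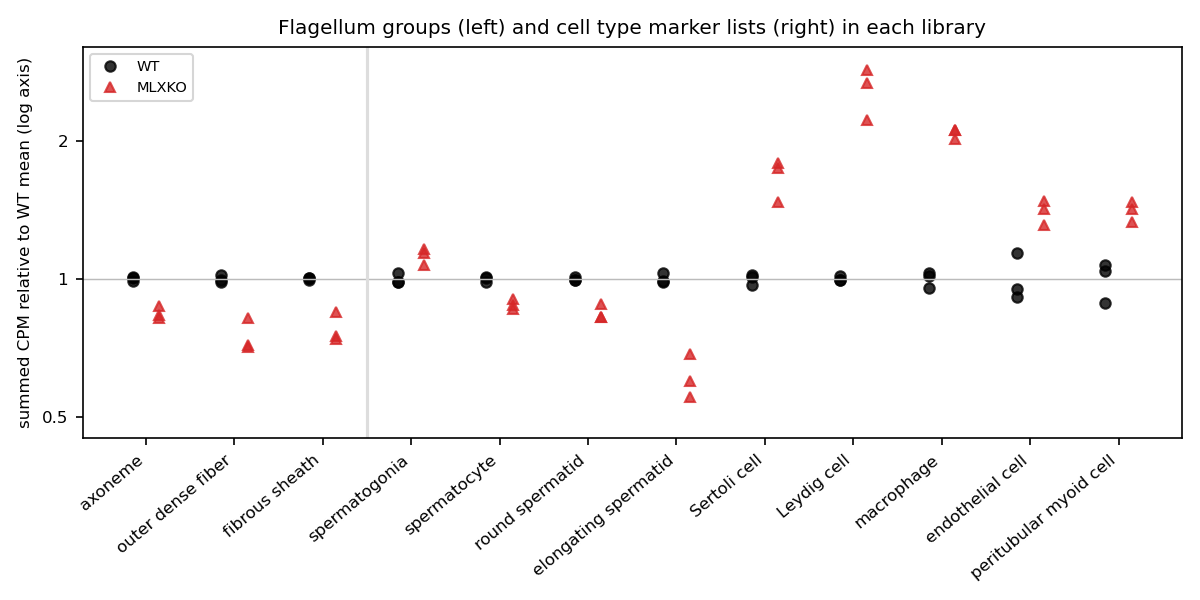
Summed CPM of the axoneme, outer dense fiber and fibrous sheath genes and of 9 cell type marker lists in each library relative to the WT mean (log y axis), WT as black circles and MLXKO as red triangles. The 3 flagellum groups and the spermatocyte and spermatid markers lie below 1 in MLXKO testes, and the spermatogonial and somatic markers above 1.

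Motile cilia also line the efferent ducts, pieces of which a testis sample could include. Of 7 markers of such multiciliated epithelium in the table, *Mcidas*, *Sntn* and *Tmem212* had at most 1 count in any library, the list summed to 6.76 to 10.5 CPM, and of the 2 tested 1, *Ccno*, was lower. Of 5 epididymal markers, 4 had at most 4 counts in any library, the list summed to 2.66 to 5.02 CPM, and the 1 tested, *Rnase10*, was lower. The flagellum genes summed to 16286 to 21472 CPM.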

How the data were processed

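RNA-seq was analysed for 6 whole testes libraries, 3 WT and 3 MLXKO. The deposited table holds whole-number counts of reads per gene symbol, which the authors made by aligning to mm10 with TopHat; the submitters' processing notes also name bcl2fastq 1.8.4, DESeq2 and bedtools. The counting tool, its annotation and its use of strand are not given in the sources used here. The deposited table also holds the authors' own comparison of the genotypes, with a mean signal, a log2 fold change and its SE, a score and p-values per gene, none of which was used, and the 16 ChIP-seq samples were not analysed here.

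Of 17933 rows, 2 repeated another row and were used once. Counts were tested in R 4.3.3 with edgeR 4.0.16, using its filter on low counts (minimum 10), TMM factors and its quasi-likelihood test, in which genotype was the sole term; the SE is the absolute LFC divided by the square root of F. Alternatives were DESeq2 1.42.0, its size factors, upper-quartile factors or library size alone, other filters, a replicate block, removal of length and GC trends, and each library left out, and exact permutation tests used scipy 1.17.1. RPKM is CPM per kilobase of the union of exons in GENCODE vM21, found for 99.8% of symbols. The code was tested on simulated data. Libraries of a genotype differed by more than sampling noise (2.73 to 8.26 as chi-square divided by its degrees of freedom, highest for KO1). The sample titles call the replicates paired and the methods describe littermates, so same-numbered libraries were taken as pairs; their deviations from the group means correlated at 0.145, 0.0363 and 0.121, and those of other libraries at most at 0.0330.

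Values per library were given by rule for the most abundant gene and the 2 largest called differences of each structure, 7 core tail genes, the paralog pairs and the leading gene of each list. Genes outside it were named after their values were seen. The members and lists were chosen with earlier results of these data known.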

Additional observations from a re-analysis of the deposited data

How the results depend on the processing

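Of the 33 flagellum genes lower in MLXKO testes, 14 were lower in each alternative and with each library left out. They were *Akap3*, *Akap4*, *Odf1*, *Odf2*, *Odf3b*, *Odf4*, *Ropn1*, *Rsph1*, *Rsph6a*, *Rsph9*, *Spag6*, *Spag17*, *Tekt1* and *Tekt5*. In every alternative other than library size alone and left-out libraries, 30 were lower. Such counts of kept calls were not made over all genes lower in MLXKO testes. With library size alone, 14 genes were lower, 7 of them axonemal, with a median LFC of -0.088 beside 0.16 for all tested genes, so that the distance between the medians was -0.25 with either scaling; 46 of the 47 genes lay below the median of all genes with either scaling. The other alternatives without a block gave 33 to 39 lower genes, where 16.7% to 26.4% of all tested genes were lower. With the replicate block the counts were 33 in edgeR and 34 in DESeq2, and 38 with length and GC trends removed, where 20.5%, 15.7% and 26.4% of all tested genes were lower. The block in edgeR lost *Dnah17* (LFC -0.15) and gained *Dnah2*, the block in DESeq2 lost *Spag7* and gained *Dnah2* and *Dnah8*, and the block with trends removed lost *Ropn1l*, changed the sheath count from 4 to 3, and gained *Dnah11*, *Dnaic1*, *Dnah2*, *Dnah6*, *Dnah8* and *Rsph3b*.

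With a library left out, 23 (without KO2) to 36 (without KO1) genes were lower, 14 to 23 of them axonemal, the median LFC was -0.26 to -0.19, and 0 to 1 were higher, the 1 being *Dnah9* without KO1, and without WT1 *Dnah11* was gained as lower. The genes that changed sign had not passed the test. With library size alone these were *Dnah6* at 0.0017, *Rsph3b* at 0.010, *Spag9* at 0.033, *Spag8* at 0.035, *Dnaic1* at 0.046, *Dnal1* at 0.082, *Odf2l* at 0.085 and *Odf3l1* at 0.10. *Fsip1* stood at -0.0014 with DESeq2's size factors, -0.0062 with DESeq2, -0.0017 with its block, -0.034 with trends removed, -0.030 with block and trends, and at -0.0018 without KO1. With a library left out, *Fsip1* ranged from -0.065 to 0.091, *Dnal1* from -0.10 to 0.0060, *Odf3l1* from -0.069 to 0.0030 and *Dnah5* from -0.33 to 0.071. Apart from the scaling, the cause of these changes was not tested. The ciliary forms had 4 to 204 counts a library, and the SE of those tested was 0.16 to 0.30. An LFC near the flagellum median of -0.23 could therefore have gone uncalled in them.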

Other observations

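Further genes of the same families stand in the table under older symbols and were found through RefSeq names after the rows had been seen. There were 10, of which 9 were tested, 2 were lower and 0 higher, with a median LFC of -0.13. The share lower is near the 20.6% of all tested genes that were lower. *1700006E09Rik* (*Cfap97d1*) had 1330, 1137 and 1160 counts in WT and 1093, 963 and 1047 counts in MLXKO testes (LFC -0.33, SE 0.06, edgeR adjusted p = 0.000721). *1700007G11Rik* (*Cfap299*) had 1334, 1104 and 1130 counts in WT and 1024, 935 and 1098 counts in MLXKO testes (LFC -0.33, SE 0.06, edgeR adjusted p = 0.00164). *Ccdc108* (*Cfap65*), the most abundant by counts, did not pass (LFC -0.12, edgeR adjusted p = 0.0669), nor did *Gm595* (*Fsip2l*), a relative of the sheath gene *Fsip2* (LFC -0.081, edgeR adjusted p = 0.262). *4932443I19Rik* (*Cfap97d2*) had 1 to 10 counts a library and was not tested.

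On chromosome 11, which carries *Mlx*, the flagellum gene nearest to it was *Spag9*, 6.96 Mb away, and the called one nearest to it was *Dnaic2*, 13.6 Mb away. Of the lower genes, *Tekt1*, *Tekt3*, *Odf4*, *Dnah17*, *Spag5* and *Spag7* also lie on that chromosome, at 16.9 to 38.0 Mb from *Mlx*.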
